A study of Mus musculus with 6 samples.

Results

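The growth plate genes described here act at the last stage of cartilage, when chondrocytes enlarge (hypertrophy) and their matrix is mineralized. The 10 genes are Ihh and Pth1r, which set the pace of hypertrophy, Col10a1 and Mmp13, which build and cleave the matrix of hypertrophic cartilage, Ibsp and Spp1, which encode mineral-binding matrix proteins, and Alpl, Phex, Slc20a1 and Panx3, which handle phosphate or ATP or the peptides that control mineral. They were taken by symbol from a table of 17666 genes, and all 10 were found. The libraries came from GFP-sorted knee joint cells of newborn (P0) mice that were then cultured in DMEM until they matured as chondrocytes. The 3 KO libraries were Ppp1r15bPrx1;Rosa26mT/mG and the 3 WT libraries were Prx1-Cre;Rosa26mT/mG, so both groups carried Prx1-Cre and the reporter, and no group was without Cre. Ppp1r15b encodes CReP, a regulatory subunit of the phosphatase that acts on the translation factor eIF2alpha. Prx1-Cre is active in early limb mesenchyme, so a GFP sort can also take other cells of that origin. The labels do not say which part of Ppp1r15b was deleted, how many animals gave each library, or whether replicates were separate cultures. The p-values therefore measure the spread between these libraries, which may be technical.

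In the growth plate, prehypertrophic chondrocytes secrete Indian hedgehog (Ihh), which raises PTHrP. PTHrP acts through the receptor Pth1r to hold chondrocytes back from hypertrophy. Hypertrophic chondrocytes then lay down collagen X and, at the end of their life, collagenase 3 (Mmp13), while tissue-nonspecific alkaline phosphatase (Alpl) cleaves pyrophosphate, an inhibitor of mineral, and sets phosphate free. Runx2 is a main transcription factor of this stage and acts together with Mef2c.

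Ppp1r15b was lower in all KO libraries, at 19.3, 23.5 and 27.5 CPM in KO replicates 1 to 3, against 86.8, 52.2 and 89.2 CPM in WT replicates 1 to 3 (edgeR quasi-likelihood adjusted p = 0.0297, and 0.118 to 0.173 with KO replicate 1 or 2 or WT replicate 1 or 3 left out; CPM is the count scaled to library size, with TMM factors). Totals were 18380875 to 19581601 estimated counts in KO and 18757785 to 19643946 in WT. KO replicate 3 stood apart from the other KO libraries. Its log2 CPM values correlated across genes at 0.9346 and 0.9337 with KO replicates 1 and 2, which correlated at 0.9935 with each other. WT replicate 2 was the WT library nearest to KO, at 0.9650 and 0.9631 with KO replicates 1 and 2. Chondrocyte markers were abundant throughout, with a summed level over 9 genes of 38021 to 39378 CPM in KO and 35581 to 47743 CPM in WT. None of the 9 was called by edgeR. Adipocyte markers summed to 16.8 to 23.1 CPM in KO and 375 to 773 CPM in WT, and 6 of 6 tested fell. Skeletal muscle markers summed to 16.5, 15.1 and 224 CPM in KO replicates 1 to 3 and 599, 78.8 and 542 CPM in WT replicates 1 to 3, with 0 of 8 called by edgeR. Fibroblast markers summed to 5433, 5563 and 1661 CPM in KO replicates 1 to 3 and 5312, 4354 and 4857 CPM in WT replicates 1 to 3, with 0 of 5 called. The part of these cells in the results was not tested. Macrophage and osteoclast markers summed to 201 to 401 CPM in KO and 312 to 455 CPM in WT. Of 9 tested, 1 fell (C1qa). Most of the KO sum was Ctsk, at 202, 184 and 270 CPM in KO replicates 1 to 3. In WT replicates 1 to 3 Ctsk was at 141, 139 and 144 CPM.

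By deposited TPM, which is scaled for gene length so that genes can be compared, Spp1 stood far above the other genes in both groups, at 822 ± 478 TPM in KO and 1224 ± 141 TPM in WT (SD, n = 3 each). Spp1 alone made up 71.8% to 79.4% of the summed TPM of the 10 genes in KO libraries and 69.2% to 74.8% in WT libraries. In KO the order by mean TPM was Spp1, Slc20a1 (85.4 ± 51.6 TPM), Mmp13 (74.2 ± 17.5 TPM), Pth1r (32.4 ± 4.52 TPM), Panx3 (20.5 ± 6.97 TPM), Alpl (19.2 ± 4.09 TPM), Ibsp (19.0 ± 7.12 TPM), Col10a1 (5.47 ± 3.19 TPM), Phex (1.95 ± 1.49 TPM) and Ihh (0.840 ± 1.16 TPM). There the ranges overlapped between Slc20a1 and Mmp13, Pth1r and Panx3, Panx3 and Alpl, Alpl and Ibsp, and Phex and Ihh. In WT, Mmp13 came after Spp1 (226 ± 6.84 TPM), followed by Slc20a1 (64.4 ± 3.72 TPM), Ibsp (56.0 ± 5.11 TPM), Alpl (46.1 ± 1.73 TPM), Pth1r (38.8 ± 1.15 TPM), Panx3 (15.8 ± 4.62 TPM), Col10a1 (15.6 ± 3.56 TPM), Phex (0.857 ± 0.227 TPM) and Ihh (0.240 ± 0.123 TPM). The WT ranges of TPM overlapped between 2 pairs of neighbours in that order, Slc20a1 with Ibsp and Panx3 with Col10a1.

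**Figure D1:**
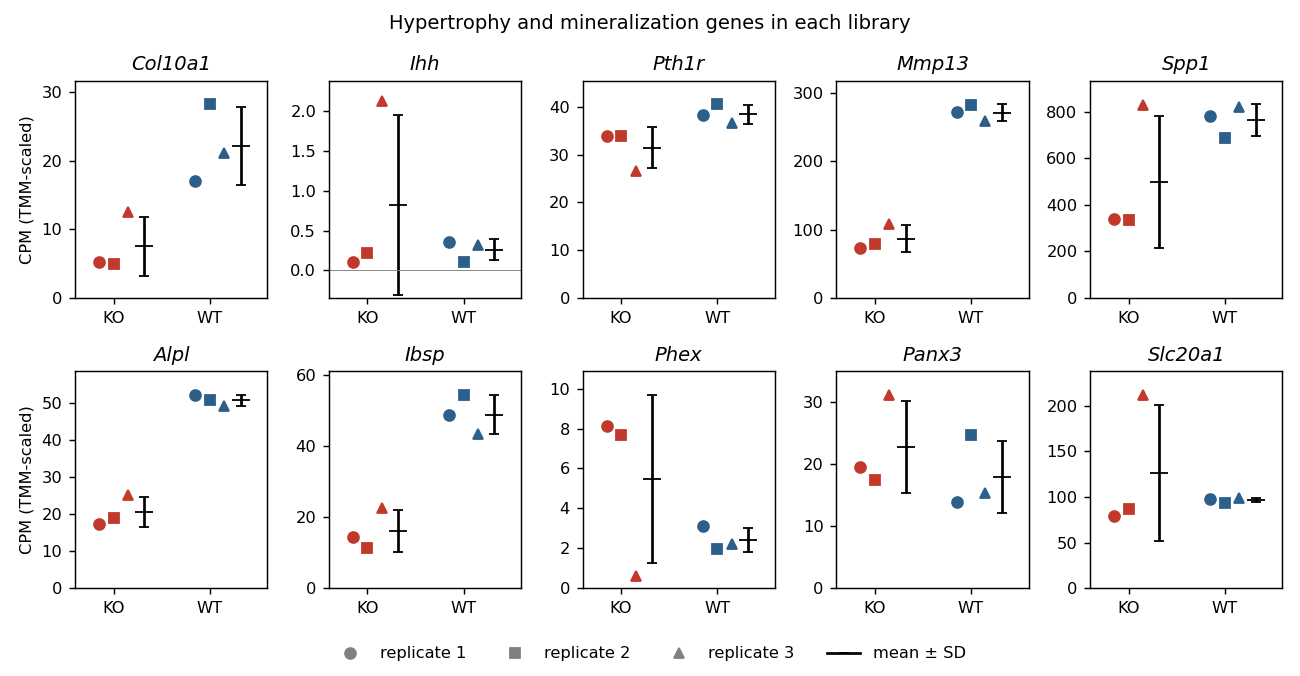
Level of each of the 10 genes in every library, in CPM on a linear axis, with KO on the left and WT on the right of each panel. Symbols give the replicate number and the black bar the group mean ± SD (n = 3 each). For Mmp13, Alpl, Ibsp, Col10a1 and Pth1r all KO points lay below all WT points. KO replicate 3 (red triangle) lay far from KO replicates 1 and 2 for Spp1, Phex, Slc20a1, Ihh and Col10a1.

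The effectors that fell in KO were the collagenase Mmp13, the mineral-binding protein gene Ibsp and alkaline phosphatase Alpl. Each was at 32.0% to 40.6% of its WT mean. Of 9 genes tested, 3 fell, 0 rose and 6 were not called (edgeR quasi-likelihood adjusted p under 0.05). Over all 13692 genes tested, 2.51% were called, 1.63% lower and 0.884% higher. The groups did not overlap for 5 of the 9, all lower in KO. Over all genes tested the groups did not overlap for 28.4%, with 14.5% lower and 14.0% higher in KO. The median log2 fold change was -0.61 over the 9 genes, which is the value of Spp1, and 0.01 over all genes tested. Over the 9 genes it was -1.18 with KO replicate 3 left out and -0.39 with KO replicate 1 or KO replicate 2 left out. Ihh was the gene not tested, since it had too few counts. In bulk RNA, fewer cells of a type and less RNA per cell cannot be told apart.

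The calls changed with the libraries used. Leaving out KO replicate 1, KO replicate 2, WT replicate 1 or WT replicate 3 left 0 of the effectors called by edgeR, and 0.0% of all genes tested in each of those fits. In the same order, 2345 of 13907, 2128 of 13910, 1555 of 13820 and 1572 of 13824 genes had an unadjusted p below 0.05 there. Of the 9 effectors tested, 5, 5, 4 and 4 had such a p. With WT replicate 2 left out, Mmp13 alone was called, where 1.27% of all genes were (0.999% lower and 0.266% higher). With KO replicate 3 left out, 5 effectors fell (Mmp13, Ibsp, Alpl, Col10a1 and Spp1) and 1 rose (Phex), where 28.5% of all genes were called (16.1% lower and 12.5% higher). With KO replicate 3 and WT replicate 2 both left out, 6 fell and 2 rose, where 39.2% of all genes were called (21.7% lower and 17.5% higher). The DESeq2 Wald test called 4 effectors lower and 0 higher, where 6.43% of its 17639 genes were called (3.75% lower and 2.69% higher). Those 17639 include genes that the edgeR filter left out for low counts, so the share is not over the same genes. Limma-voom called 3 lower and 0 higher, where 1.99% of all genes were called (1.29% lower and 0.701% higher).

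The collagen X gene and the collagenase gene Mmp13 were lower in every KO library than in WT. Col10a1 (Entrez gene 12813, chromosome 10 from 34389981 to 34397085 in GRCm38.p6) encodes the short-chain collagen of hypertrophic cartilage. It had 96, 89 and 252 counts in KO replicates 1 to 3, against 335, 519 and 397 counts in WT replicates 1 to 3. The groups did not overlap, and KO replicate 3 was 2.47 times the mean of the other KO libraries in CPM. Its level was 7.52 ± 4.28 CPM in KO and 22.1 ± 5.67 CPM in WT (SD, n = 3 each). Its log2 fold change was -1.55, with an SE of 0.411 and a 95% interval from -2.55 to -0.55, and edgeR did not call it (adjusted p = 0.118). DESeq2 called it (adjusted p = 0.00493), as did edgeR without KO replicate 3 (-2.12, adjusted p = 0.000544).

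Mmp13 (Entrez gene 17386, chromosome 9 from 7272514 to 7283333), which cleaves collagen II of the cartilage matrix, had 1349, 1435 and 2204 counts in KO replicates 1 to 3. In WT replicates 1 to 3 it had 5369, 5203 and 4862 counts. The groups lay far apart, and the highest KO library was KO replicate 3. Its level was 87.0 ± 19.2 CPM in KO and 272 ± 12.1 CPM in WT (SD, n = 3 each), 3.12 times higher in WT. The log2 fold change was -1.64 (SE 0.161, 95% interval -2.03 to -1.25, edgeR adjusted p = 0.0151), and 37 of all genes tested had a p as small or smaller. The adjusted p was 0.0852 without KO replicate 1, 0.0978 without KO replicate 2, 0.108 without WT replicate 1, 0.11 without WT replicate 3 and 0.0368 without WT replicate 2.

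The acidic matrix proteins of the mineral phase differed in how their KO libraries agreed. Ibsp (Entrez gene 15891, chromosome 5 from 104299287 to 104311472) encodes bone sialoprotein, which binds hydroxyapatite and can start its crystals. It had 263, 207 and 458 counts in KO replicates 1 to 3, against 956, 999 and 812 counts in WT replicates 1 to 3. The groups did not overlap. Its level was 16.1 ± 5.86 CPM in KO and 48.7 ± 5.55 CPM in WT (SD, n = 3 each). Its log2 fold change was -1.60, with an SE of 0.26 and a 95% interval -2.23 to -0.97 (edgeR adjusted p = 0.0417). Leaving out any one of KO replicates 1 and 2 and WT replicates 1 to 3 ended its call (adjusted p from 0.111 to 0.191).

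Spp1 (Entrez gene 20750, chromosome 5 from 104435111 to 104441053) starts 123638 bases beyond the end of Ibsp, in the cluster of mineral-binding protein genes, and encodes osteopontin, which binds mineral and cell surface integrins. It had 6211, 6093 and 16709 counts in KO replicates 1 to 3, against 15386, 12644 and 15389 counts in WT replicates 1 to 3. KO replicates 1 and 2 lay below all WT libraries, while KO replicate 3 lay at 826 CPM, above the highest WT library at 820 CPM. The log2 fold change was -0.61 (SE 0.372, 95% interval -1.52 to 0.29, edgeR adjusted p = 0.432). With KO replicate 3 left out it was -1.18 (SE 0.0866, adjusted p = 0.000138). Spp1 is also a macrophage gene. The macrophage marker Lyz2 was counted after the GFP sort, at 5.16, 4.88 and 68.1 CPM in KO replicates 1 to 3. In WT replicates 1 to 3 Lyz2 was at 169, 100 and 166 CPM. Macrophage and osteoclast markers summed to 219, 201 and 401 CPM in KO replicates 1 to 3 and 449, 312 and 455 CPM in WT replicates 1 to 3. Ctsk, which chondrocytes can also express, made up 184 to 270 CPM of that sum in KO and 139 to 144 CPM in WT. Of the 13 markers, Dcstamp had 0 counts in all KO libraries and 0, 0 and 2 counts in WT replicates 1 to 3. Csf1r, the receptor that macrophages depend on, was at 1.09, 1.76 and 11.9 CPM in KO replicates 1 to 3 and 31.4, 13.3 and 28.7 CPM in WT replicates 1 to 3. Cd68, Adgre1, Ptprc and C1qb were also highest in KO replicate 3 among the KO libraries, but C1qa and Acp5 were not. C1qa, the marker called, was at 0.435, 0.165 and 0.247 CPM in KO replicates 1 to 3 and 8.23, 4.52 and 9.06 CPM in WT replicates 1 to 3. Acp5 was at 3.53, 4.17 and 1.73 CPM in KO and 8.49, 5.33 and 9.43 CPM in WT. The part of these cells in the Spp1 level was not tested.

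Among the genes that handle phosphate, Alpl fell and Phex and Slc20a1 split the KO libraries. Alpl (Entrez gene 11647, chromosome 4 from 137741731 to 137796384) had 322, 349 and 510 counts in KO replicates 1 to 3, against 1029, 935 and 925 counts in WT replicates 1 to 3. Every KO library lay below every WT library, and the WT libraries were close together. Its level was 20.6 ± 4.07 CPM in KO and 50.8 ± 1.51 CPM in WT (SD, n = 3 each). Its log2 fold change was -1.30, with an SE of 0.144 and a 95% interval -1.65 to -0.95 (edgeR adjusted p = 0.0188). Alpl is also made by osteoblasts and other connective tissue cells. Leaving out WT replicate 2 ended the call (adjusted p = 0.0507), and leaving out KO replicates 1 or 2 or WT replicates 1 or 3 gave adjusted p from 0.0903 to 0.125.

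Phex (Entrez gene 18675, chromosome X from 157162075 to 157415286) encodes an endopeptidase known from X-linked hypophosphatemia, which cleaves mineral-inhibiting peptides. It had 150, 140 and 13 counts in KO replicates 1 to 3, against 61, 36 and 42 counts in WT replicates 1 to 3. KO replicates 1 and 2 lay above all WT libraries, on average 3.25 times the WT mean in CPM, and KO replicate 3 lay below all of them at 0.264 times the WT mean. The log2 fold change over all 6 libraries was 1.17 (SE 0.819, 95% interval -0.82 to 3.15, edgeR adjusted p = 0.496). With that library left out it was 1.70 (SE 0.217, adjusted p = 0.00135). Osteoblasts and osteocytes express Phex. Osteoblast and osteocyte markers summed to 9891, 10159 and 2736 CPM in KO replicates 1 to 3 and 13398, 9797 and 13114 CPM in WT replicates 1 to 3, nearly all of it Col1a1. The osteocalcin gene Bglap, another marker on that list, went the other way in KO replicate 3, with 21, 21 and 355 counts in KO replicates 1 to 3 and 89, 124 and 104 counts in WT replicates 1 to 3. Bglap has near-identical copies, so its counts are uncertain. The part of these cells in the Phex level was not tested.

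Slc20a1 (Entrez gene 20515, chromosome 2 from 129198773 to 129211615), which encodes the sodium-phosphate cotransporter PiT-1, had 1451, 1594 and 4290 counts in KO replicates 1 to 3, against 1921, 1723 and 1852 counts in WT replicates 1 to 3. KO replicates 1 and 2 lay below all WT libraries in CPM, and KO replicate 3 lay at 2.19 times the WT mean. The log2 fold change was 0.38 (SE 0.381, 95% interval -0.54 to 1.31, edgeR adjusted p = 0.647). Its direction turned without KO replicate 3 (-0.21, adjusted p = 0.0522).

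Panx3 (Entrez gene 208098, chromosome 9 from 37659902 to 37669222), a pannexin channel that releases ATP from maturing chondrocytes and osteoblasts, had 359, 316 and 629 counts in KO replicates 1 to 3. In WT replicates 1 to 3 it had 274, 452 and 287 counts, so that the groups overlapped and WT replicate 2 lay between the KO libraries. The log2 fold change was 0.34 (SE 0.306, 95% interval -0.40 to 1.08, edgeR adjusted p = 0.609).

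The signals upstream of hypertrophy gave a weak receptor difference and almost no ligand. Pth1r (Entrez gene 19228, chromosome 9 from 110722085 to 110747145) had 626, 619 and 536 counts in KO replicates 1 to 3, against 753, 746 and 688 counts in WT replicates 1 to 3. All KO libraries lay below all WT libraries by a narrow gap, at 31.5 ± 4.32 CPM in KO and 38.5 ± 1.98 CPM in WT (SD, n = 3 each). The log2 fold change was -0.29 (SE 0.117, 95% interval -0.57 to -0.01, edgeR adjusted p = 0.252), and the adjusted p stayed above the threshold under all 15 alternatives. Ihh (Entrez gene 16147, chromosome 1 from 74945315 to 74951672) had 2, 4 and 43 counts in KO replicates 1 to 3, against 7, 2 and 6 counts in WT replicates 1 to 3. KO replicate 3 held nearly all the KO counts, and the other 5 libraries held 7 counts or fewer. With no filter on low counts its log2 fold change was 1.62 (SE 1.11, edgeR adjusted p = 0.527).

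**Figure D2:**
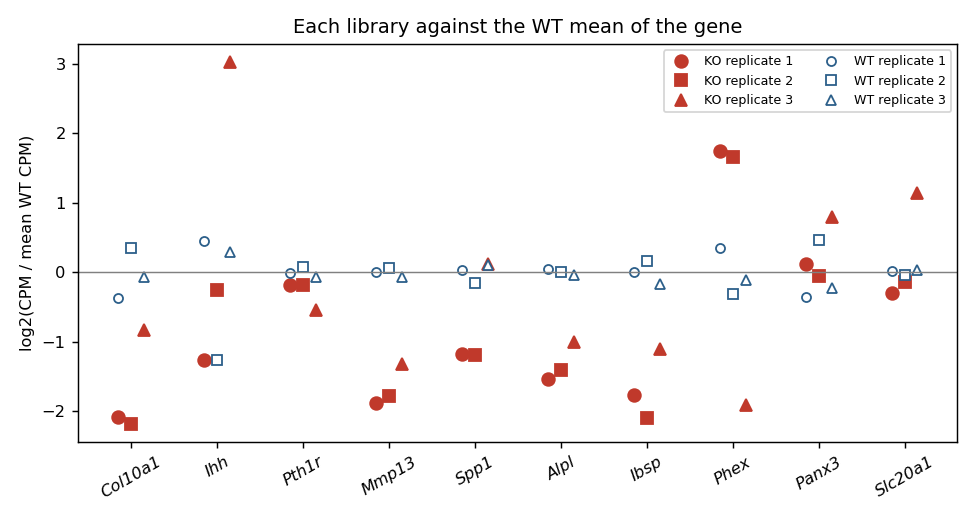
Each library as the log2 ratio of its CPM to the mean WT CPM of the same gene, KO in filled red and WT in open blue symbols, by replicate. All KO symbols lie below all WT symbols for Mmp13, Ibsp, Alpl, Col10a1 and Pth1r. For Phex KO replicates 1 and 2 lie above and KO replicate 3 below the WT libraries. For Ihh, Slc20a1, Spp1 and Col10a1 KO replicate 3 lies far above the other KO libraries.

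**Figure D3:**
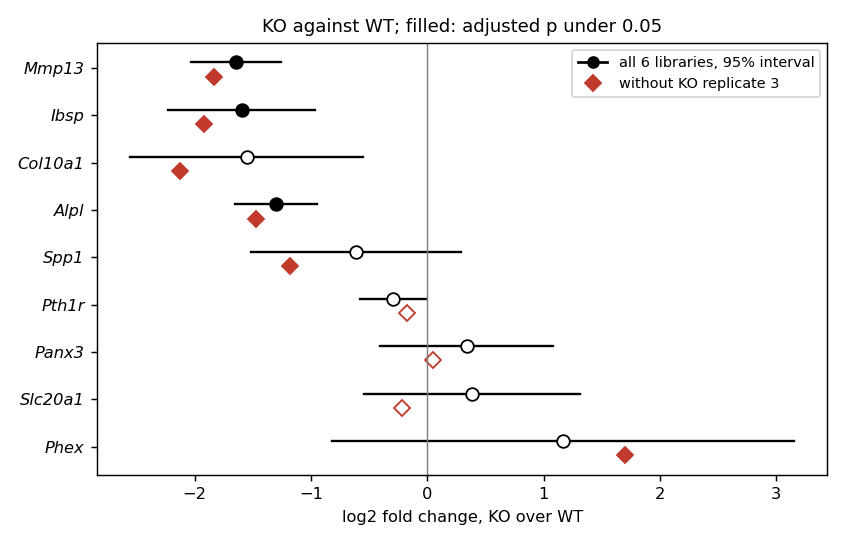
Log2 fold change, KO over WT, of the 9 genes tested, with all 6 libraries (black, with the 95% interval) and without KO replicate 3 (red diamonds). Filled symbols have an edgeR adjusted p under 0.05. Mmp13 (-1.64), Ibsp (-1.60) and Alpl (-1.30) were called in both fits. Col10a1, Spp1 and Phex were called only in the fit without KO replicate 3, and the estimate of Slc20a1 changed sign between the fits.

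KO replicate 3 was higher than the mean of KO replicates 1 and 2 in CPM for 8 of the 10 genes. The ratio was 1.38 for Alpl, 1.43 for Mmp13, 1.69 for Panx3, 1.77 for Ibsp, 2.46 for Spp1, 2.47 for Col10a1, 2.55 for Slc20a1 and 13.0 for Ihh. It was 0.780 for Pth1r and 0.0812 for Phex. WT replicate 2 differed less from the other WT libraries, by a ratio of 0.322 for Ihh, which rests on 2 counts, and from 0.734 (Phex) to 1.68 (Panx3) for the others. Mmp13, Ibsp, Alpl and Col10a1 were lower than in WT in KO replicate 3 too, at 0.401, 0.465, 0.496 and 0.563 times the WT mean.

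A ratio to Col2a1, the main cartilage collagen, within each library does not depend on scaling between libraries. The log2 ratio of Mmp13 to Col2a1 counts was -8.42, -8.35 and -7.96 in KO replicates 1 to 3 and -6.71, -6.96 and -6.69 in WT replicates 1 to 3. The difference between group means of this ratio, KO minus WT, was -1.45 for Mmp13, -1.44 for Ibsp, -1.11 for Alpl and -1.46 for Col10a1, and the groups did not overlap for any of these 4. For Pth1r the difference was -0.09 and the groups overlapped, unlike in CPM. They also overlapped for Spp1 (-0.54), Panx3 (0.55), Slc20a1 (0.44), Phex (0.72) and Ihh (0.89). The ratio was taken for the 10 genes only, so the share of all genes without overlap on it is not known. In CPM the groups did not overlap for 28.4% of all genes tested. Col2a1 itself had a log2 fold change of -0.22 (edgeR adjusted p = 0.617).

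The 250 bases before the RefSeq start site are shown for Mmp13 and Alpl, which fell, and for Col10a1, the marker of the hypertrophic stage. Ibsp is left out, since GENCODE starts its transcript inside that window. Sequences are from RefSeq, build GRCm38.p6, 5′ to 3′ on the strand of the gene. Capitals mark matches on either strand to 6 motifs: the RUNX core TGTGGT, AP-1 TGANTCA, the C/EBP-ATF element TGATGNAA, the homeodomain core TAATTA, the TATA box TATAAA and the CCAAT box CCAAT. None of the matches overlapped another.
Mmp13, chr9:7272264-7272513, plus strand: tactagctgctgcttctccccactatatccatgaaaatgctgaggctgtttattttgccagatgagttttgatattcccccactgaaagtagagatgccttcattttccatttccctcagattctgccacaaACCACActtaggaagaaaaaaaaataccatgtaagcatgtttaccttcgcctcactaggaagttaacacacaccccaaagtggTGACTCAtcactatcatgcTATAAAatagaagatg
Alpl, chr4:137796385-137796634, minus strand: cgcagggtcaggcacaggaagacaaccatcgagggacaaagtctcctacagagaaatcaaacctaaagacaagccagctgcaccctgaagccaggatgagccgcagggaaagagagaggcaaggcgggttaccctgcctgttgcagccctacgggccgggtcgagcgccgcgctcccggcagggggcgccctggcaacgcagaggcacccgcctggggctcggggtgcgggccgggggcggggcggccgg
Col10a1, chr10:34389731-34389980, plus strand: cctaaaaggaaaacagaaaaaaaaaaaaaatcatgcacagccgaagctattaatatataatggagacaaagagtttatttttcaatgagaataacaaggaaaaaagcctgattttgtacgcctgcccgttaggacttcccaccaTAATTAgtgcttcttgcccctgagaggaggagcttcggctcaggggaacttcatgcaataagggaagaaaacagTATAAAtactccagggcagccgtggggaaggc

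Counting back from the start site, the Mmp13 window held a RUNX core from base -118 to -113, an AP-1 match from -35 to -29 and a TATA box from -16 to -11. The Col10a1 window held a homeodomain core from -106 to -101 and a TATA box from -32 to -27. The Alpl window held none of these letters. Of 32851 mouse promoter windows of the same length, 14.0% held the RUNX core, 6.75% AP-1, 3.45% the C/EBP-ATF element, 4.84% the homeodomain core, 12.4% the TATA box and 33.8% the CCAAT box. No motif was held by all 3 windows, and the C/EBP-ATF element was in none of them. G and C made up 40.4% of the Mmp13 window, 41.6% of Col10a1 and 68.4% of Alpl, beside a median of 52.4% over all windows. RefSeq gives Alpl a further start site, whose window is not shown and held a TATA box match from -192 to -187 on the opposite strand. At least 1 window was found for 9 of the 10 genes.

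In the transcript table, Mmp13, Ibsp, Col10a1, Phex and Panx3 were each listed as 1 transcript, so their gene levels are those of that transcript. For the other 5 the share of the leading transcript was compared by a two-sided exact permutation test, whose smallest possible p is 0.1. The leading Alpl transcript NM_007431.3 took 29.4%, 70.9% and 44.5% of Alpl counts in KO replicates 1 to 3 and 62.8%, 44.9% and 49.3% in WT replicates 1 to 3 (exact permutation p = 0.8). XM_006538499.3 took nearly all the rest, with no order by group. Spp1 was almost all NM_009263.3, at 94.1 ± 0.727% in KO and 94.5 ± 0.736% in WT (SD, n = 3 each). For Slc20a1 the share of NM_015747.2 was 81.5 ± 1.26% in KO and 84.1 ± 0.918% in WT (SD, n = 3 each; exact permutation p = 0.1, and 0.5 adjusted over the 5 genes). The shares did not overlap between the groups, and KO replicate 3, which stood apart in the level of Slc20a1, did not stand apart in this share (82.9%, 80.9% and 80.6% in KO replicates 1 to 3). Pth1r was 57.7%, 58.2% and 95.4% NM_001083936.1 in KO replicates 1 to 3 and 67.4%, 75.4% and 64.3% in WT replicates 1 to 3 (exact permutation p = 1.0). Shares of transcripts that overlap are estimates of the counting program, and no depth of unique reads is given for them.

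Among other genes of hypertrophy and mineralization, few were called over the 6 libraries. Of 12 regulators of hypertrophy tested, 0 were called by edgeR (2 at an unadjusted p under 0.05, with 1 called by DESeq2 and 0 by limma-voom), where 2.51% of all genes tested were called. DESeq2 called 6.43% of 17639 genes and limma-voom 1.99% of 13692, and 2627 of 13692 genes had an unadjusted p under 0.05 by edgeR. The median log2 fold change of the regulators was -0.05. The most abundant were Sox9 (0.06, edgeR adjusted p = 0.87), the factor that maintains chondrocytes, and Mef2d (0.11, adjusted p = 0.685). Mef2c, which DESeq2 called lower (adjusted p = 0.0187), had 34.1 ± 4.55 CPM in KO and 57.5 ± 13.2 CPM in WT (SD, n = 3 each). Runx2 had 40.9 ± 7.25 CPM in KO and 48.1 ± 2.69 CPM in WT. In the fit without KO replicate 3, Sp7, Foxa2, Mef2c and Runx3 were called lower and 0 regulators higher, where 16.1% of all genes tested were called lower.

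Of 9 growth plate signal genes tested, Vegfa, which draws blood vessels into hypertrophic cartilage, rose, 0 fell and 8 were not called, where 0.884% of all genes tested were called higher. Its level was 196, 204 and 212 CPM in KO replicates 1 to 3 and 154, 142 and 153 CPM in WT replicates 1 to 3. Its log2 fold change was 0.45, with an SE of 0.0693 (edgeR adjusted p = 0.0375). The groups did not overlap. Leaving out any library other than KO replicate 3 ended the call (edgeR adjusted p from 0.097 to 0.202). The median over the list was 0.25. All 9 estimates were positive over the 6 libraries. With KO replicate 3 left out, 10 genes of the list passed the filter, and 7 estimates were positive and 3 negative. With WT replicate 2 left out as well, 10 were tested, with 6 positive and 4 negative. These counts are therefore not over the same genes as the 9. Fgfr3, a receptor that restrains chondrocyte growth, had the highest estimate at 1.24 and was not called by edgeR (SE 0.326, adjusted p = 0.116). DESeq2 called it (adjusted p = 0.00294), as did edgeR without KO replicate 3 (0.85, adjusted p = 0.00986). Pthlh, which encodes PTHrP, had too few counts to be tested.

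Of 12 further genes of phosphate and mineral handling, Anxa2, an annexin found in matrix vesicles, fell, 0 rose and 11 were not called, where 1.63% of all genes tested were called lower. Anxa2 had 542 ± 41.2 CPM in KO and 825 ± 56.6 CPM in WT (SD, n = 3 each). Its log2 fold change was -0.61, with an SE of 0.0977 (edgeR adjusted p = 0.0404). That call, too, was lost with any library other than KO replicate 3 left out (edgeR adjusted p from 0.103 to 0.204). The median over the list was 0.17. Phospho1, which releases phosphate inside matrix vesicles, was not called (0.63, SE 0.331, adjusted p = 0.368), nor was Enpp1, which makes the pyrophosphate that Alpl cleaves (-0.39, SE 0.203, adjusted p = 0.367). Enpp1 was at 41.2, 43.5 and 68.4 CPM in KO replicates 1 to 3 and 64.8, 63.0 and 72.3 CPM in WT replicates 1 to 3. In the fit without KO replicate 3, Smpd3 and Slc20a2 were called higher and Enpp1, Anxa2, Anxa5 and Anxa6 lower, where 12.5% of all genes tested were called higher and 16.1% lower.

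Of 8 tested bone matrix protein genes 0 were called by edgeR (1 at an unadjusted p under 0.05, with 0 called by DESeq2 and 0 by limma-voom), and the most abundant were Col1a1 (-0.67, adjusted p = 0.519) and Col1a2 (-0.08, adjusted p = 0.951). Of 10 matrix breakdown genes 0 were called by edgeR (2 at an unadjusted p under 0.05, with 2 called by DESeq2 and 0 by limma-voom), with Timp3 at 0.23 (adjusted p = 0.782) and Timp2 at 0.01 (adjusted p = 0.989). Mmp14, the membrane metalloproteinase that can activate Mmp13, was at 0.17 (SE 0.405, adjusted p = 0.869), and Mmp9, which acts at the front where vessels enter cartilage, at -1.71 (SE 0.81, adjusted p = 0.318). Without KO replicate 3, 2 bone matrix genes rose and 2 fell, and 2 matrix breakdown genes rose and 3 fell, in a fit that called 28.5% of all genes tested. DESeq2 called Ctsk higher and Timp1 lower. Over all genes of each fit with the 6 libraries, edgeR called 2.51% of 13692, DESeq2 6.43% of 17639 and limma-voom 1.99% of 13692. In that edgeR fit, 2627 of 13692 genes had an unadjusted p under 0.05.

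**Figure D4:**
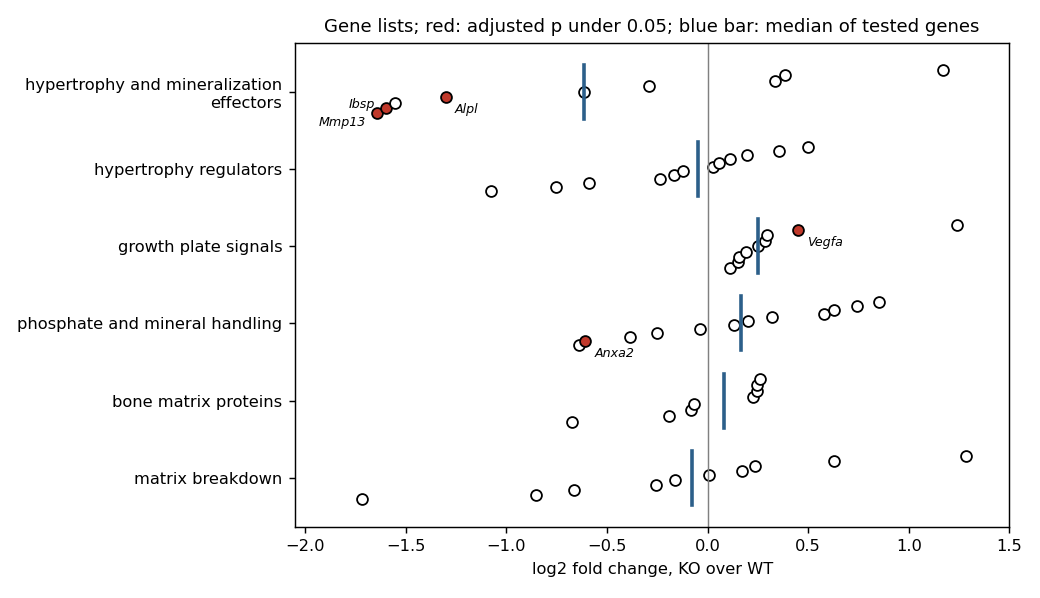
Log2 fold change, KO over WT, of each tested gene in the group of 9 effectors and in 5 lists of other genes, 1 point per gene, over all 6 libraries. Red points have an edgeR adjusted p under 0.05 and blue bars are medians of the genes tested. The median was -0.61 for the effectors (-1.18 to -0.39 with 1 library left out) and between -0.08 and 0.25 for the other lists.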

How the data were processed

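Total RNA was isolated with QIAzol, per the labels; how libraries were selected is not given in the sources used here. Per the labels' protocols, STAR 2.7.5a aligned read pairs to mm10 and featureCounts 2.0.0 counted them on GENCODE annotation. The deposited tables do not match that protocol: they give estimated counts, 12.9% of them not whole, under Entrez gene identifiers and RefSeq transcripts, and the program that made them is not given in the sources used here. The authors also deposited TPM values, scaled for length and depth, which were used for levels. No per-sample column was left unmapped.

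Estimated counts were rounded. In R 4.3.3 with edgeR 4.0.16, filterByExpr (a count of 10 and a total of 15 at least) chose the genes, TMM scaled the libraries, and the quasi-likelihood method was used without covariates, with Benjamini-Hochberg adjustment over 13692 genes. Genes are said to have risen or fallen at adjusted p below 0.05. The standard error was the log2 fold change over the square root of F. Alternatives were DESeq2 1.42.0 (size factors, Wald test), library size only, limma 3.58.1 (voom, and trend on log2(TPM + 1)), no filter, a filter of 1 CPM in all libraries, the replicate block, and libraries left out. The code was tested on simulated data. No test over a gene list was run.

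The genes and lists were chosen with earlier results of these data known. The rule for named genes took the 10 effectors, Ppp1r15b, and from each list the called genes or, with none called, its 2 most abundant; other genes of the lists were named after their values were seen, as were the TATA and CCAAT motifs. Within groups, pairs of libraries had a chi-square per degree of freedom of 3.04 (WT replicates 1 and 3), 4.83 (KO replicates 1 and 2) and 15.4 to 128. This is more than counting noise but does not show that they are separate samples; all 6 were entered as the labels list them. Of 17666 gene identifiers, 17551 had a row in the RefSeq table, whose assembly GRCm38.p6 (equal to mm10) gave positions.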

Additional observations from a re-analysis of the deposited data

How the results depend on the processing

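The counts of calls depended on the libraries and on the block more than on scaling or filter. With the replicate number as a block, 0 of the effectors were called (3 in the reported fit) and 5 of all genes (344), with 0 growth plate signals and 0 phosphate genes. Same-numbered libraries deviated from their group means with correlations of -0.143, 0.215 and 0.238, and KO replicate 1 correlated best with WT replicate 2 (0.255), so the numbers were not taken to pair the samples. The DESeq2 Wald test called 1135 genes, 1 regulator of hypertrophy, 2 growth plate signals, 2 phosphate genes and 2 matrix breakdown genes. With KO replicate 3 and WT replicate 2 both left out, 8 effectors and 5416 genes were called, with 5 regulators, 5 growth plate signals, 8 phosphate genes, 6 bone matrix genes and 7 matrix breakdown genes; this rests on the spread within close pairs. With 1 library left out, calls ranged from 0 to 6 effectors, 0 to 3962 genes, 0 to 4 regulators, 0 to 3 growth plate signals, 0 to 6 phosphate genes, 0 to 4 bone matrix genes and 0 to 5 matrix breakdown genes. The cause was not tested.

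The log2 fold changes of Mmp13, Ibsp, Alpl, Col10a1, Spp1, Pth1r, Phex and Panx3 kept their direction in every alternative that gave a value. Mmp13 ranged from -1.83 to -1.53 and was past the threshold in 10 of 15, Alpl from -1.47 to -1.19 (9 of 15) and Ibsp from -1.92 to -1.40 (9 of 15). Slc20a1 ranged from -0.21 to 0.63 with 1 library left out and was -0.24 with both left out. Without KO replicate 3 and WT replicate 2, Mef2d (-0.054), Col1a2 (0.25) and Timp3 (-0.21) also turned. With 1 library left out the ranges were -0.014 to 0.19 for Mef2d, -0.35 to 0.32 for Col1a2, -0.29 to 0.46 for Timp3, -0.038 to 0.23 for Sox9 and -0.035 to 0.083 for Timp2, which was -0.0075 with 1 CPM required in all libraries. The KO minus WT difference in the leading transcript's share ranged from -15.4 to 5.39 points for Alpl, from -11.1 to 7.73 for Pth1r and from -0.808 to 0.00599 for Spp1. Ihh had at most 43 counts in a library, and the limits set by depth and by the spread within KO were not separated.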
